A study of Mus musculus with 9 samples.

Results

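A mutant form of the transcription factor GATA1 was compared with the wildtype form after each had been put back into cells that lack it. The comparison used 6 of the 9 RNA sequencing libraries of the study, chosen by their labels: 3 from cells given mutant GATA1 and 3 from cells given wildtype GATA1. All libraries came from G1E, a mouse erythroid progenitor line in which the Gata1 gene was disrupted, grown with stem cell factor (SCF) and erythropoietin (EPO) and infected with a retroviral vector called HMD. The 3 other libraries carried the vector without GATA1 and served as the baseline against which both forms can be read. The labels name neither the mutation, nor the time after infection, nor any selection of infected cells, and they do not say whether the numbered samples were separate cultures, so the p-values measure the spread between these samples, which may be technical. All samples are 1 cell line, and in such bulk samples fewer cells of a state and less RNA per cell cannot be told apart.

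GATA1 is a zinc finger protein that binds GATA motifs in DNA and is needed for red cells, megakaryocytes, mast cells and eosinophils to form. In erythroid progenitors it activates the genes of hemoglobin, heme and the red cell membrane, and it represses genes of the progenitor state such as Gata2 and Kit. It acts with partner proteins, among them FOG1, and G1E cells are a standard system in which forms of GATA1 are tested for these activities.

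The human GATA1 transcript of the vector was present in both groups. It stood at 653, 706 and 598 CPM (each count divided by its library total and put on a common scale) in the mutant libraries and at 816, 715 and 921 CPM in the wildtype libraries. Every mutant value lay below every wildtype value, with means of 653 ± 53.9 and 817 ± 103 CPM (SD, n = 3 each). This is a mutant level at 79.8% of wildtype, for which the exact two-sided permutation test over samples gave p = 0.1, the smallest value that 3 against 3 samples allow. After TMM scaling, which corrects for differences in RNA composition, the share was 74.4%, at 635 ± 59.3 against 854 ± 66.0 CPM. The part this lower transgene level plays in the gene differences was not tested. The empty vector libraries held 0, 2 and 0 counts. The mouse Gata1 row held 48.9 ± 0.869 CPM with mutant and 47.1 ± 3.42 CPM with wildtype GATA1 (SD, n = 3 each) and was not called (adjusted p = 0.763). Which exons the disruption of Gata1 in this line spares is not given in the labels, so that row checks nothing.

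Library totals ran from 14788962 to 17289307 counts with mutant and from 11364358 to 13103114 with wildtype GATA1, so a single count was worth less in the mutant libraries. Globin genes took 0.122% to 0.130% of the counts with mutant, 1.61% to 2.47% with wildtype and 0.0263% to 0.0303% with the empty vector. Mutant replicates 1 and 2 stood closer to each other than any other 2 libraries of a group, though they differed by more than sampling noise. Mitochondrially encoded genes took 0.890% of mutant replicate 3 and 1.23% of wildtype replicate 3, against 0.313% to 0.349% of the other 4 libraries.

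Among the mouse genes, 9978 had enough counts to be tested with edgeR's quasi-likelihood test. A gene was called when its Benjamini-Hochberg adjusted p over all tested genes was under 0.05. By that rule 25.9% of tested genes were called, 1267 of them lower (12.7% of tested genes) and 1313 higher (13.2%) with mutant than with wildtype GATA1. The counts of every gene list below are to be read against these shares. The ranges of the 3 mutant and 3 wildtype libraries did not overlap for 44.2% of tested genes. The counts were even, but the sizes were not. At least 8-fold differences were found for 68 lower and 12 higher genes, at least 4-fold for 132 and 61, and at least 2-fold for 376 and 350. Most calls were smaller than 2-fold, namely 891 of the lower and 963 of the higher genes. The counts depended on single libraries: without mutant replicate 1 there were 778 lower and 693 higher genes, without mutant replicate 2 there were 779 and 791, without wildtype replicate 1 there were 885 and 758, and without wildtype replicate 2 there were 911 and 869. With library totals in place of TMM scaling, 33.5% of calls were lower instead of 49.1%, and the median log2 fold change of all genes moved from -0.01 to 0.10. With a block for the replicate number, the 9 libraries gave 1001 lower and 1054 higher genes, and the 6 libraries alone gave 2417 and 2323.

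**Figure D1:**
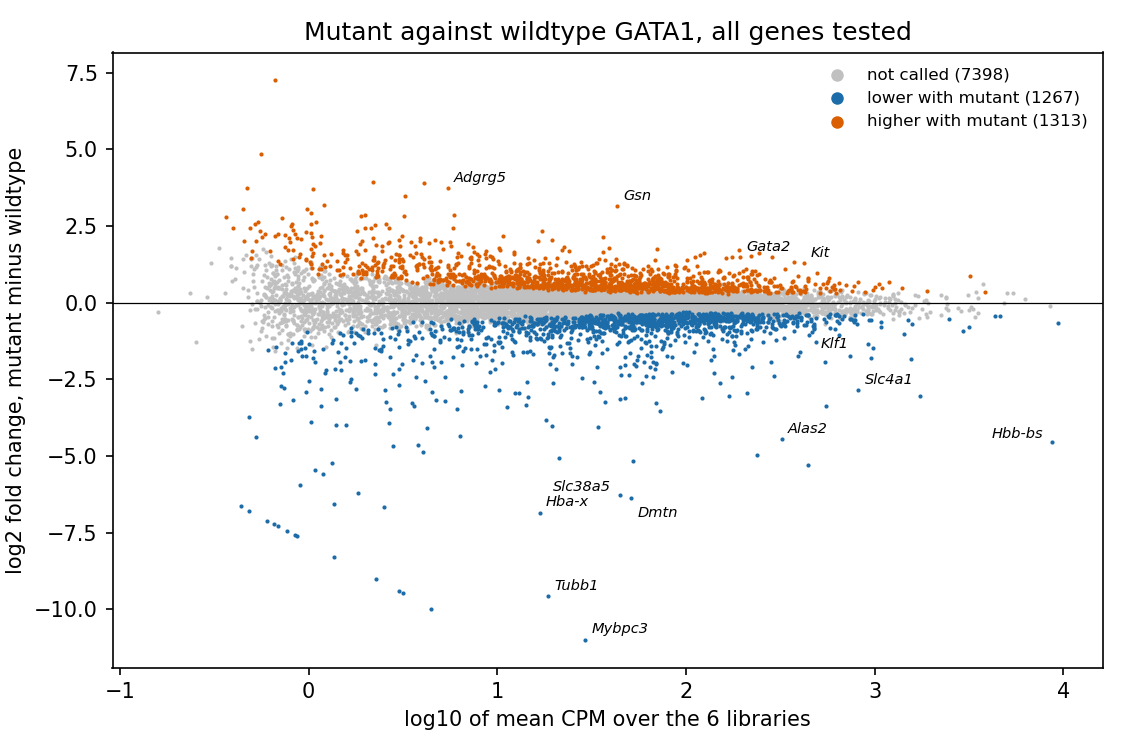
Each point is 1 of the 9978 tested genes, placed by the log10 of its mean CPM over the 6 libraries and by its log2 fold change, mutant minus wildtype, with the 1267 lower calls in blue and the 1313 higher calls in orange. The blue points reach much further from 0 than the orange ones, with Mybpc3 and Tubb1 at the bottom and Gsn and Adgrg5 among the better expressed genes at the top.

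Position against the empty vector was used to place the mutant. Among the 1267 genes lower with mutant than wildtype, the mutant mean lay between the empty vector and wildtype means for 555 and below both for 712. Among the 1313 higher genes it lay between them for 431 and above both for 882. Over all tested genes the mutant mean lay between the other two means for 39.6%. Both forms were set against the same empty vector libraries, so the values below give each form's level beside that baseline with no test of their likeness.

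The single largest difference was Mybpc3, a gene known for the myosin-binding protein of heart muscle (chr2:91118144-91136516, plus strand, GENCODE M21 on GRCm38). It stood at 0, 0.0603 and 0 CPM with mutant and at 65.9, 46.4 and 63.5 CPM with wildtype GATA1. The mutant libraries together held 1 count of it against 2028 in the wildtype libraries, a ratio of 2940 with a 95% counting interval of 527 to 116182. No count was found with the empty vector, from which wildtype GATA1 was at least 858-fold higher, taking 3 counts over the group as the floor. The nearest tested neighbours of Mybpc3 were not called. Spi1, which encodes the myeloid factor PU.1 and lies 2388 bases away, differed by -0.20 ± 0.13 log2 units (SE, adjusted p = 0.286), and Madd, 844 bases away on the other side, by 0.01 ± 0.16 (adjusted p = 0.966). Further away, Slc39a13 differed by -0.58 ± 0.20 (SE, adjusted p = 0.0529) and Acp2 by -0.06 (adjusted p = 0.786).

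Tubb1, the beta-1 tubulin of platelets (chr2:174450695-174457882, plus strand), also had almost no counts with mutant GATA1. Its levels were 0.0565, 0 and 0.0649 CPM with mutant and 41.9, 40.8 and 29.1 CPM with wildtype GATA1. That is 2 counts against 1279, a ratio of 927 (95% counting interval 256 to 7664), with 1 count in the empty vector libraries. Unlike those of Mybpc3, neighbours of Tubb1 were lower too: Atp5e, 3190 bases away, by 0.96 on the log2 scale (adjusted p = 0.00375) and Ctsz, 11656 bases away, by 0.39 (adjusted p = 0.0470). A few further genes of this kind, chosen after their values were seen, had no count in any mutant or empty vector library. Sult5a1, a sulfotransferase, had 303 counts with wildtype GATA1, and Apol8 and Apol11b, members of the apolipoprotein L family, had 215 and 206. Against a floor of 3 counts over the mutant group, wildtype GATA1 was at least 146-fold, 104-fold and 99.5-fold higher. Among genes of other or little-studied function, Nxpe2, Gdpd1, Fhdc1 and Dnah2 were lower by 3.83 to 4.36 on the log2 scale; Nxpe2 had 3.86 ± 0.418 CPM with mutant, 3.80 with the empty vector and 64.5 ± 6.96 with wildtype GATA1 (SD, n = 3).

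The 250 bases before the RefSeq start site were read for the genes of largest change that had an entry, to show what GATA motifs these promoters hold (RefSeq, GRCm38.p6). The motif AGATAA was searched on both strands, along with its variants AGATAG, which ends in G, and TGATAA, which begins with T, and with the variant TGATAG, which does both. Matches are written in capitals, 5′ to 3′ on the gene's strand. Mybpc3 (chr2:91117894-91118143) and Hba-x (chr11:32276350-32276599) each held 2 matches, whereas Tubb1 (chr2:174450345-174450594) and the transporter gene Slc38a5 (chrX:8271131-8271380) held none, all on the plus strand.
Mybpc3: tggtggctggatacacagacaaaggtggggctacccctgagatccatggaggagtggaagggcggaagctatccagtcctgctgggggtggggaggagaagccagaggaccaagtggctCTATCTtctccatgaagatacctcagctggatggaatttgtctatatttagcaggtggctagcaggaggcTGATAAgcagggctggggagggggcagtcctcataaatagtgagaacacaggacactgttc
Hba-x: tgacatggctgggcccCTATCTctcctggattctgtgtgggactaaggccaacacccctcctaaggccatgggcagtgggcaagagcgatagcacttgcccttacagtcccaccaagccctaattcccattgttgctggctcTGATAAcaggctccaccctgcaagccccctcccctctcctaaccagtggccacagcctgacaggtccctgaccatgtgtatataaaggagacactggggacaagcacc
Tubb1: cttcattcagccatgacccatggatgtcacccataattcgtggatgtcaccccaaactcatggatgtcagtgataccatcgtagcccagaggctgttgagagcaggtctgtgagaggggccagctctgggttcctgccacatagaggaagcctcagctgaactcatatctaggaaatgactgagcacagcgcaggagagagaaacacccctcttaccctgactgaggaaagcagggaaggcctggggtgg
Slc38a5: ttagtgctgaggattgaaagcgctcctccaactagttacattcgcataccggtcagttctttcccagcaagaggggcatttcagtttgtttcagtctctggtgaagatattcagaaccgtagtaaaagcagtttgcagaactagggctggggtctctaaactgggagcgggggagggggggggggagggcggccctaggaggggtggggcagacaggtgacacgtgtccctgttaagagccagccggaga

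Among the genes higher with mutant GATA1, Adgrg5 (chr8:94923444-94923693), Slc34a3 and Ahnak held no match in that window and Lcp2 (chr11:34046678-34046927) held 3. Both windows printed here are on the plus strand.
Adgrg5: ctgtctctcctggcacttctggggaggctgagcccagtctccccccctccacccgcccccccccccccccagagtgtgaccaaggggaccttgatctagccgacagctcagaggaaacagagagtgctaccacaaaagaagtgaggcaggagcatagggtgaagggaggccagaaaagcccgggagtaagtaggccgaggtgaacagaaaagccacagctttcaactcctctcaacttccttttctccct
Lcp2: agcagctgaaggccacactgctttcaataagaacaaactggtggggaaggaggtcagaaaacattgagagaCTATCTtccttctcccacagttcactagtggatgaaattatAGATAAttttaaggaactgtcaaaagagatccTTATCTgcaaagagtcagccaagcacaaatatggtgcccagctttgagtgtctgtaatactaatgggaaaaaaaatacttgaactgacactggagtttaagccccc

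Of the 6110 tested genes with 1 promoter entry, 16.7% held at least 1 of these motifs in the window. The share was 21.2% of 791 genes called lower and 15.6% of 751 called higher. It was 39.8% of the 83 genes at least 4-fold lower and 7.69% of the 39 genes at least 4-fold higher with mutant GATA1. A match in these letters is not a bound site, and GATA1 is known to bind mostly at distal enhancers, which were not examined here.

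Globin genes, which encode the oxygen-carrying chains of hemoglobin, were lower with mutant GATA1 without exception among the 9 tested members, with a median log2 fold change of -4.96 against -0.01 over all genes. Hbb-bs, the main adult beta chain in this line, stood at 692, 721 and 726 CPM with mutant and 17585, 21400 and 11087 CPM with wildtype GATA1. The mutant mean was thus 4.27% of the wildtype mean (log2 fold change -4.55 ± 0.23, SE, adjusted p = 3.56e-08) and the empty vector mean was 76.7 CPM. The mutant libraries stood apart from both other groups. The embryonic chains were lower as well. Hba-x, the zeta chain, had 0.452, 0.181 and 0.195 CPM with mutant and 47.7, 29.0 and 23.2 CPM with wildtype GATA1, and Hbb-y had 1.21 ± 0.469 against 41.1 ± 12.8 CPM (SD, n = 3 each). Hbb-bh1 stood at 14.8 ± 0.532 CPM with mutant, 463 ± 168 with wildtype and 1.11 with the empty vector. Hba-a1 and Hba-a2, and likewise Hbb-bs and Hbb-bt, are near-identical copies whose reads the counting may have divided. In wildtype replicate 3, Hba-a2 had 1519 CPM against 520 and 568 in the others, while Hba-a1 had 2238 CPM against 3687 and 3459.

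Heme synthesis genes were the next group, with 13 of 18 tested members lower and none higher (median -1.31), with 1 higher when library totals or the replicate block over 6 libraries was used. The 5 other members were not called. Alas2, the erythroid enzyme of the first and rate-limiting step, had 25.4, 31.2 and 27.5 CPM with mutant and 726, 669 and 450 CPM with wildtype GATA1, or 4.56% of the wildtype mean (log2 fold change -4.45 ± 0.19, SE, adjusted p = 1.37e-08). The following enzymes of the pathway were reduced less. Alad, which joins the first intermediates, stood at 28.6% of wildtype and Ppox, the last step but one, at 41.4%. The transporters that carry heme precursors across mitochondrial membranes were lower as well, with Tmem14c at 29.7% and Abcb10 at 32.5% of wildtype. With the empty vector, Alad had 298 CPM against 427 ± 49.7 with mutant and 1491 ± 289 with wildtype GATA1 (SD, n = 3), and Ppox 38.5 against 44.8 ± 2.10 and 108 ± 5.54.

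**Figure D2:**
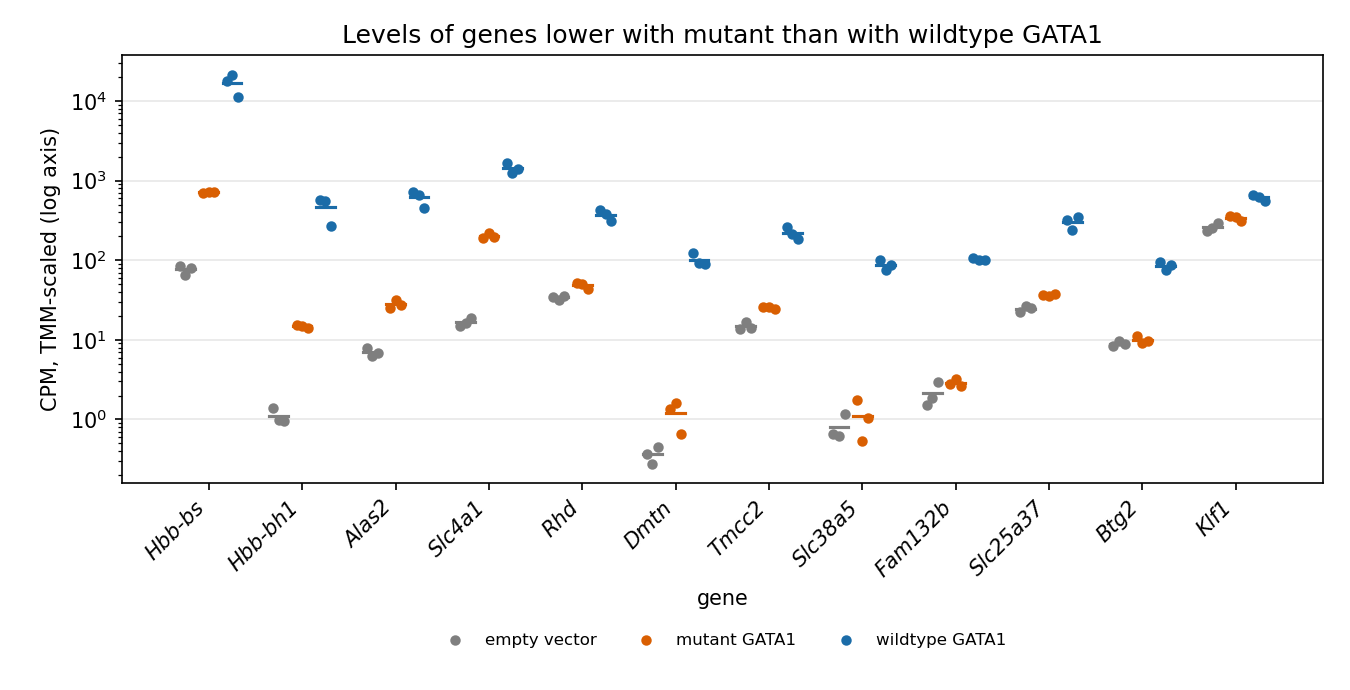
TMM-scaled CPM on a log axis for 12 genes lower with mutant than wildtype GATA1, with 1 point for each library, 3 in each group, and short bars for the means. Globins, Alas2 and Slc4a1 with mutant GATA1 lie between the empty vector and wildtype levels, while Btg2, Fam132b and Slc38a5 lie near the empty vector levels.

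Iron handling genes were called in both directions, 43.5% lower and 17.4% higher, against 12.7% and 13.2% of all tested genes. Of 23 tested members, 10 were lower and 4 higher with mutant GATA1 (median -0.28), falling to 6 lower and 1 higher without mutant replicate 1, to 1 higher without mutant replicate 2 and to 2 higher without wildtype replicate 1. The largest differences were in genes of erythroid iron supply. Fam132b, which encodes the hormone erythroferrone, had 2.77, 3.20 and 2.60 CPM with mutant and 106, 100 and 100 CPM with wildtype GATA1. The mutant level, 2.85 ± 0.308 CPM (SD, n = 3), was close to the 2.13 CPM of the empty vector. Slc25a37, the mitochondrial iron importer mitoferrin, stood at 36.8 ± 0.808 against 304 ± 54.4 CPM, and the iron-sulfur cluster factors Glrx5 and Isca1 stood at 53.5% and 62.1% of wildtype. Aco1, an iron-sensing regulator of mRNA, went the other way, with 310 ± 10.5 CPM with mutant and 167 ± 4.46 with wildtype GATA1 (SD, n = 3; adjusted p = 9.09e-05). The 3 other higher members, the ferritin receptor gene Ncoa4 and the iron chaperone genes Pcbp1 and Pcbp2, differed by 0.50, 0.44 and 0.41 log2 units.

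At the cell surface, 14 of 25 tested red cell proteins and transporters were lower and 2 higher (median -0.45), 9 lower with library totals or without wildtype replicate 1, and the higher count was 0 without mutant replicate 1, 1 without mutant replicate 2 or 3, wildtype replicate 1 or 2 or empty vector replicate 2, and 1 and 4 with the replicate block over 9 and 6 libraries. The 2 higher members, Slc3a2 and Car2, which is a cytosolic carbonic anhydrase, showed small differences of 0.51 and 0.35 log2 units. Slc4a1, the band 3 anion exchanger, stood at 188, 221 and 193 CPM with mutant and at 1671, 1242 and 1410 CPM with wildtype GATA1 (log2 fold change -2.85 ± 0.14, SE, adjusted p = 3.86e-08). Its empty vector level was 16.7 CPM, so this gene was well above the baseline with both forms. Slc38a5, a glutamine transporter, had 1.75, 0.543 and 1.04 CPM with mutant and 102, 74.3 and 87.7 CPM with wildtype GATA1, against 0.816 with the empty vector. The blood group protein Rhd stood at 13.0% of wildtype and the water and glycerol channel Aqp3 at 18.6%.

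The skeleton beneath the red cell membrane showed the same direction in 10 of 17 members, with 2 higher (median -1.22). Dmtn encodes dematin, which bundles actin at the spectrin junctions (chr14:70601263-70636048, minus strand). It had 1.36, 1.63 and 0.649 CPM with mutant and 124, 91.7 and 88.6 CPM with wildtype GATA1 (log2 fold change -6.36 ± 0.26, SE, adjusted p = 1.37e-08), and 0.366 CPM with the empty vector. Fam160b2, 1428 bases from it, differed by 0.06 log2 units (adjusted p = 0.823). Further away, Nudt18 differed by -0.47 (adjusted p = 0.0395) and Dok2 by 0.81 (adjusted p = 0.0489). Epb42, the band 3 anchor protein 4.2, stood at 23.9% of wildtype and the actin cap Tmod1 at 23.5%. The list also held the membrane proteins Stom, at 25.5%, and Tmcc2, at 11.6%. The 2 higher members were Add3 and Tpm3, an adducin and a tropomyosin that are made in many cell types, at 1.08 and 0.60 log2 units.

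Transcription factors of the erythroid programme differed less than the groups above. Of 29 tested members, 8 were lower and 4 higher (median -0.05), with 7 higher without wildtype replicate 3 and 7 higher with the replicate block over 6 libraries. Klf1, which drives adult beta globin, had 357, 349 and 314 CPM with mutant and 661, 631 and 553 CPM with wildtype GATA1, 55.3% of the wildtype mean. E2f2, a cell cycle factor of late erythroblasts, stood at 53.5% and Klf3, a repressor in the Klf1 network, at 36.9%. Myb, a factor of proliferating progenitors, was higher with mutant GATA1, at 69.2 ± 1.17 against 37.1 ± 6.51 CPM, and so was the coactivator gene Cited2, at 10.2 ± 1.77 against 4.86 ± 0.725 CPM (SD, n = 3 each). The 2 other higher members were the glucocorticoid receptor gene Nr3c1 and the corepressor gene Cbfa2t3, at 0.72 and 0.75 log2 units.

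Erythropoietin signalling was divided evenly, with 6 of 21 tested members lower and 6 higher (median 0.31), or 10 higher with the replicate block over 6 libraries. Epor, the receptor, stood at 192, 186 and 164 CPM with mutant and at 324, 349 and 269 CPM with wildtype GATA1, so the groups did not overlap. Cish, a feedback inhibitor that Stat5 induces, stood at 50.9% of wildtype. The signal transducer Stat5a itself had 347, 334 and 300 CPM with mutant and 112, 108 and 123 CPM with wildtype GATA1, a 2.86-fold difference upward (adjusted p = 3.78e-06), and its empty vector level was 305 CPM. Stat3 was 2.04-fold and the phosphatase gene Ptpn6 1.80-fold higher with mutant GATA1.

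Several genes of the progenitor state were higher with mutant than with wildtype GATA1. Of 15 tested members, 7 were higher and none lower (median 0.63); 13 others of the 28 listed had too few counts, and 9 of these, among them Hoxa9 and Mecom, had none in any library. A gene can pass the filter through the group where it is high, so this count is a description, as are those of every other list of which members went untested. Kit, the receptor for stem cell factor, had 599, 560 and 647 CPM with mutant, 245, 238 and 261 CPM with wildtype GATA1 and a mean of 661 CPM with the empty vector (log2 fold change 1.28 ± 0.12, SE, adjusted p = 6.8e-06). Gata2, the GATA factor that GATA1 displaces, stood at 288, 280 and 290 CPM with mutant and at 107, 86.8 and 114 CPM with wildtype GATA1, with 328 CPM for the empty vector. With mutant GATA1, Kit thus stood at 91.1% and Gata2 at 87.3% of the empty vector level. Hhex was 2.16-fold, Zbtb16 3.08-fold and Ikzf2 3.99-fold higher with mutant GATA1, all 3 being transcription factors of early blood cells. Ikzf2 values spread widely in the wildtype libraries, from 0.867 to 4.57 CPM.

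Genes of other blood lineages were tested next, beginning with mast cells. Of 12 tested members of 23, 4 were higher, none lower and 8 not called (median 0.35). The lowest member, at -1.27 log2 units, was among those not called. Cpa3, the mast cell carboxypeptidase, had 10.2, 11.4 and 13.4 CPM with mutant and 4.32, 4.04 and 3.25 CPM with wildtype GATA1, both below the 31.4 CPM of the empty vector. Il1rl1, the interleukin 33 receptor, stood at 67.0 ± 2.87 against 27.1 ± 3.13 CPM, with 99.5 CPM for the empty vector. Rab44, a small GTPase gene of granule cells, was 5.35-fold and Alox5ap, needed for leukotriene synthesis, 4.05-fold higher. Unlike Cpa3 and Il1rl1, their mutant means of 9.84 and 3.08 CPM lay above the empty vector means of 9.17 and 1.86 CPM. The defining protease genes Mcpt8, Mcpt4 and Tpsb2 had no count in any library. Summed over the 23 listed genes, levels ran from 352 to 375 CPM with mutant, 245 to 282 with wildtype and 457 to 487 with the empty vector.

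Of 11 tested megakaryocyte and platelet genes among 24 listed, 8 were higher and only Tubb1 was lower (median 0.71). The higher count was unsteady: it was 2 without mutant replicate 1 or wildtype replicate 1, 3 without mutant replicate 2, 4 without mutant replicate 3 and 5 without wildtype replicate 2. Ppbp, a platelet chemokine, had 3.11, 3.38 and 3.64 CPM with mutant and 0.240, 0.674 and 0.966 CPM with wildtype GATA1, and 2.68 with the empty vector. Nrgn, a calmodulin-binding protein abundant in platelets, stood at 32.2 ± 4.39 against 18.1 ± 2.34 CPM (SD, n = 3 each). Vwf, Selp and Gp1bb, which define the lineage, had no count. Sums over the list ran from 212 to 218 CPM with mutant, 141 to 188 with wildtype and 283 to 327 with the empty vector.

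Granulocyte, monocyte and macrophage genes had the highest median of all lists, 2.10, with 10 of 12 tested members of 29 higher and 1 lower. They were present at low levels, and only 2 were called higher when 5 CPM in 3 libraries was required. The lower one, Ncf4, lost its call without mutant replicate 1, mutant replicate 2 or wildtype replicate 2. Ncf1, a subunit of the phagocyte oxidase, had 4.30, 4.64 and 3.51 CPM with mutant, 0.240, 0.289 and 0.264 CPM with wildtype GATA1 and 1.72 CPM with the empty vector. Cebpe, a factor of late granulocytes, stood at 2.19 ± 0.211 against 0.229 ± 0.0789 CPM, with 0.828 for the empty vector. For both, the mutant libraries were above the other 2 groups. The wildtype libraries together held only 9 counts of Ncf1 and 8 of Cebpe, so their levels there are near the floor. Clec4d, a lectin receptor with 47.7 ± 1.83 against 23.9 ± 5.54 CPM, was the best expressed of the 5 members with the smallest p. Its mutant level lay below the 62.9 CPM of the empty vector. Elane and Ctsg had no count. S100a8 and S100a9 were at 0 too, but so were S100a4, S100a6, S100a10 and S100a11 of the adhesion list, and whether these zeros come from the counting was not tested. The summed list ran from 114 to 119 CPM with mutant, 55.7 to 71.1 with wildtype and 123 to 135 with the empty vector. Of 17 lymphoid genes only Gata3 (3.01-fold higher) and Lck, a T cell kinase gene at 56.7% of wildtype, were tested. The call of Lck was lost without mutant replicate 1 or 2 or wildtype replicate 1 or 2, and 10 lymphoid genes, among them Cd3e and Pax5, had no count.

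Adaptors and kinases of immune receptor signalling were higher for 12 and lower for 3 of 17 tested members (median 0.93; 31 listed). Lcp2, the adaptor SLP-76, had 62.8, 59.2 and 55.5 CPM with mutant and 10.8, 14.3 and 15.2 CPM with wildtype GATA1 (log2 fold change 2.14 ± 0.15, SE, adjusted p = 5.77e-07), with 65.8 CPM for the empty vector. Vav1, an exchange factor, was 2.08-fold higher. The 3 lower members were the adaptor gene Grap2, at 30.8% of wildtype, and Csf2rb and Csf2rb2, at 42% and 16.8%. The last 2 encode beta chains of the interleukin 3 receptor family and are near-identical copies.

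Cell adhesion and actin remodelling genes were higher for 12 of 20 tested members of 32 and lower for none (median 0.72). Gsn encodes gelsolin, which severs and caps actin filaments (chr2:35256380-35307892, plus strand). It had 77.7, 85.6 and 70.5 CPM with mutant and 6.96, 12.2 and 7.29 CPM with wildtype GATA1 (log2 fold change 3.15 ± 0.20, SE, adjusted p = 3.09e-07), and 52.0 CPM with the empty vector. Stom, on the minus strand with its nearer end 6094 bases from Gsn, moved the opposite way, by -1.97 ± 0.13 (SE, adjusted p = 3.69e-07). Vim, the intermediate filament of progenitors that red cells lose, stood at 188 ± 21.1 against 60.9 ± 9.67 CPM, and Zyx and Flna, which link actin to adhesion sites, were 2.69-fold and 2.14-fold higher. The integrin gene Itgal had 4.26 ± 0.648 against 1.07 ± 0.0977 CPM (SD, n = 3 each).

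Adgrg5, an adhesion G protein-coupled receptor (chr8:94923694-94943280, plus strand), had the largest difference upward among genes averaging at least 5 CPM. Its values were 10.2, 11.2 and 9.09 CPM with mutant and 0.640, 0.770 and 0.878 CPM with wildtype GATA1 (log2 fold change 3.72 ± 0.25, SE, adjusted p = 5.08e-07), and 4.67 CPM with the empty vector. Its genomic neighbours were higher too, named here after their values were seen: Ccdc102a, 5596 bases away, by 1.72 ± 0.17 and Adgrg1, 31471 bases away, by 0.87 ± 0.16 log2 units (SE, adjusted p = 1.81e-05 and 0.00165). Slc34a3, a phosphate transporter, had 10.003, 11.5 and 9.55 CPM with mutant, 1.52, 2.12 and 0.615 CPM with wildtype GATA1 and 2.65 with the empty vector. Ahnak, a very large scaffold protein, had 26.5, 21.6 and 37.9 CPM with mutant and 5.52, 3.66 and 7.91 CPM with wildtype GATA1, with 12.03 for the empty vector. In these 3 genes the mutant mean lay above both other groups, whereas Papss2, which makes the sulfate donor for sulfotransferases, had 31.3 ± 1.62 CPM with mutant, 32.9 with the empty vector and 7.66 ± 1.10 with wildtype GATA1. Paqr7, a progestin receptor of the cell membrane, had 26.4 ± 1.53 CPM with mutant, 20.9 with the empty vector and 6.49 ± 0.730 with wildtype GATA1. The remaining genes of largest upward difference, Rrad, Irf5, Dennd1c, Bhlha15, Lst1 and Rps6ka1, were 3.53-fold to 4.45-fold higher.

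**Figure D3:**
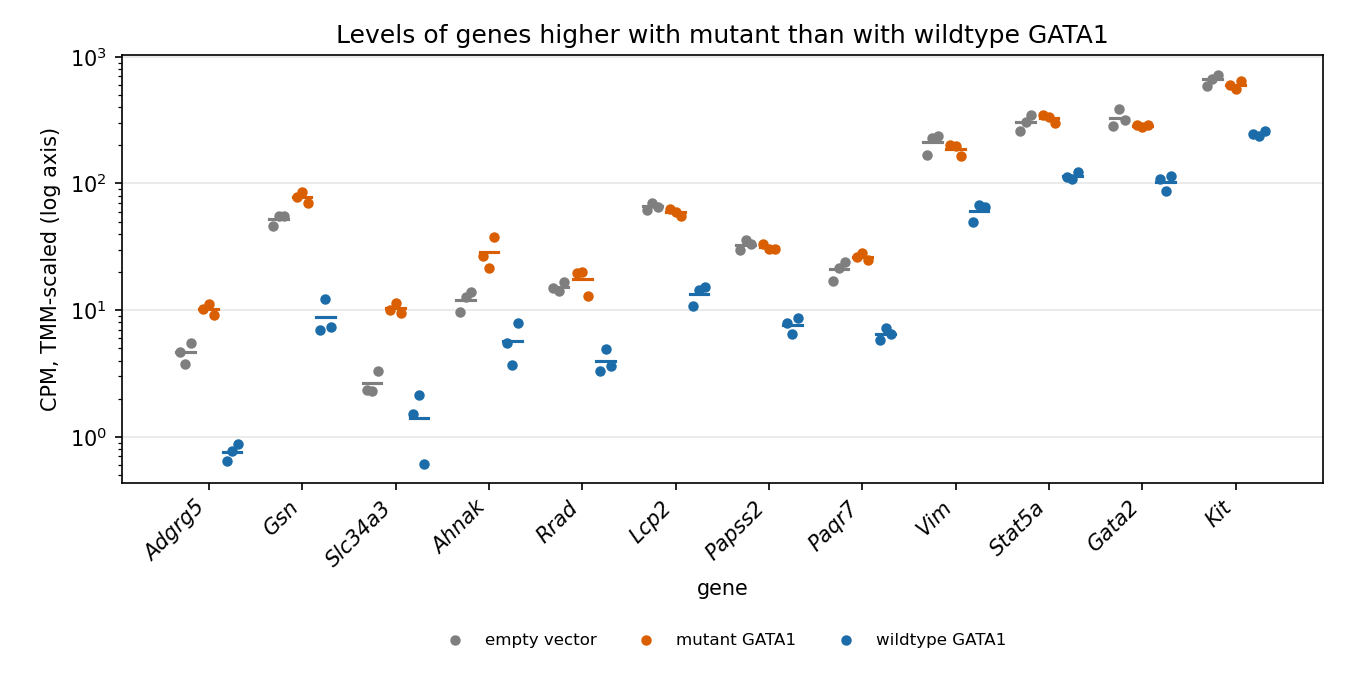
TMM-scaled CPM on a log axis for 12 genes higher with mutant than wildtype GATA1, with 1 point for each library, 3 in each group, and short bars for the means. The wildtype points are the lowest of each gene, Papss2, Lcp2, Stat5a and Vim with mutant GATA1 lie near the empty vector levels, and Adgrg5, Slc34a3 and Ahnak lie above them.

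Growth arrest genes included some of the steeper losses. Of 22 tested members, 6 were lower and 2 higher (median -0.32). The count of higher members was 0 without mutant replicate 1 or wildtype replicate 2, 1 without mutant replicate 2, mutant replicate 3, wildtype replicate 1 or empty vector replicate 2, but 4 when wildtype replicate 3 was left out. The replicate block gave 1 higher over 9 libraries and 10 lower over 6. The 2 higher members were Rbl2 and Ddit4, at 0.41 and 0.84 log2 units. Btg2, an antiproliferative gene, had 11.2, 9.10 and 9.61 CPM with mutant and 94.4, 75.2 and 86.1 CPM with wildtype GATA1, against 8.94 with the empty vector. Mxd1, an antagonist of Myc, stood at 26.1% of wildtype, Gadd45a at 32.7% and Mxd3 at 42.3%.

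Cell cycle genes were mixed and the differences small, except for 2 drivers of G1 and G2. Cdc25b, a phosphatase that activates cyclin-dependent kinases, had 17.9, 16.5 and 15.002 CPM with mutant and 118, 95.7 and 87.4 CPM with wildtype GATA1, and Ccne1, cyclin E1, had 92.2 ± 1.83 against 292 ± 25.2 CPM. Among the D cyclins, Ccnd3, which helps set the number of erythroid divisions, stood at 61.1% of wildtype, while Ccnd2 was 1.57-fold and Cdk6 1.76-fold higher with mutant GATA1. In all, 3 of 17 tested G1 genes were lower and 2 higher (median -0.01), 5 lower without empty vector replicate 3, 4 higher without wildtype replicate 3, and 6 in each direction with the replicate block over 6 libraries. The G1 shares were 17.6% lower and 11.8% higher, near the 12.7% and 13.2% of all tested genes. Of 41 DNA replication genes, 10 were lower and 2 higher (median -0.11). The lower count was 5 without mutant replicate 1 or 2, 6 without mutant replicate 3 or wildtype replicate 1, and 19 with the replicate block over 6 libraries. The higher count was 1 without mutant replicate 1 or 2, wildtype replicate 1 or 2, or empty vector replicate 2, 4 without empty vector replicate 1 or 3, and 6 with that block. The 2 higher genes were Rfc1 and Pole, at 0.56 and 0.42 log2 units. Orc2, which marks replication origins, stood at 53.1% of wildtype and Rfc4, a loader of the replication clamp, at 63.0%. Of 39 genes of mitosis, 11 were lower and none higher (median -0.17), 7 lower without mutant replicate 1 or 2 and 17 with the block over 6 libraries, which also gave 1 higher. Ube2c, which feeds the anaphase-promoting complex, stood at 52.2% of wildtype, Cenpa, the centromeric histone, at 54.7% and Nusap1, a spindle protein, at 47.9%.

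Genes of the clearance that turns an erythroblast into a red cell were lower for 13 of 33 tested autophagy members (39.4% against 12.7% of all genes; median -0.43) and higher for none, with 3 higher without empty vector replicate 1, 1 without empty vector replicate 3 and 3 with the block over 6 libraries. Wipi1, which acts early in autophagosome formation, had 11.6, 11.3 and 8.83 CPM with mutant and 34.2, 29.6 and 36.5 CPM with wildtype GATA1. Map1lc3b, the autophagosome protein LC3B, stood at 113 ± 7.66 against 237 ± 26.0 CPM, with 117 CPM for the empty vector, and the proteases Atg4d and Atg4a that process it at 36.9% and 40.3% of wildtype. Of 20 tested ubiquitin enzymes linked to erythroid maturation, 9 were lower and none higher (median -0.38), with 1 higher in the block over 6 libraries. The ligase gene Trim10 had 58.7, 59.4 and 58.3 CPM with mutant and 231, 219 and 188 CPM with wildtype GATA1, against 47.8 with the empty vector. Ube2l6 stood at 29.7% and Fbxo7 at 57.1% of wildtype.

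Genes of stress responses were examined next. Of 17 tested members of the integrated stress response, 9 were lower and 1 higher (median -0.36), the higher one being Eif2ak4, a kinase that senses amino acid shortage, at 0.54 log2 units. It was not called without mutant replicate 1 or wildtype replicate 1, and 2 members were higher with the block over 6 libraries. Ddit3, the factor CHOP, had 23.2, 22.01 and 18.3 CPM with mutant and 98.1, 89.9 and 67.6 CPM with wildtype GATA1, with 16.8 for the empty vector. Ppp1r15a, which reverses the response, stood at 29.6% of wildtype and Eif2ak1, the kinase that senses heme, at 49.6%. Of 28 tested antioxidant genes, 12 were lower and 2 higher (median -0.26). The number of lower genes dropped to 7 without mutant replicate 2, and to 6 when wildtype replicate 1 was left out. The 2 higher genes were Txnip and Glrx, at 0.53 and 0.31 log2 units. The higher count was 0 without any 1 of the mutant replicates or wildtype replicate 1, 1 without wildtype replicate 2, wildtype replicate 3 or empty vector replicate 2, and 1 and 4 with the block over 9 and 6 libraries. Prdx2, a peroxidase abundant in red cells, had 707, 714 and 624 CPM with mutant and 2598, 2843 and 1834 CPM with wildtype GATA1, and Blvrb, a reductase of erythroid cells, stood at 35.7% of wildtype.

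Of 18 tested immediate early genes among 32 listed, 7 were higher and 2 lower (median 0.46), a description since members can pass the filter through the group where they are high. Egr1 had 34.3 ± 2.31 CPM with mutant and 15.1 ± 2.64 with wildtype GATA1, and Fosl1 5.28 ± 0.527 against 2.26 ± 0.443 (SD, n = 3 each). Dusp1, a phosphatase that shuts off MAP kinases, was the exception in size: 11.2, 15.2 and 12.3 CPM with mutant against 125, 127 and 125 CPM with wildtype GATA1, and 9.88 with the empty vector. The other lower member was Junb, at 66.8% of wildtype. Among 20 apoptosis regulators 1 was lower and 5 higher (median 0.14). The higher count was 0 without mutant replicate 2 or wildtype replicate 1, 2 without mutant replicate 1, and 3 without mutant replicate 3 or wildtype replicate 2, and the lower count was 4 without wildtype replicate 3 and 5 with the block over 6 libraries. The lower one was Bcl2l1, the survival gene Bcl-xL, at 97.5 ± 4.35 against 149 ± 13.5 CPM.

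Sugar metabolism genes were called in both directions, 14.3% lower and 25% higher, against 12.7% and 13.2% of all tested genes. Of 28 tested genes of glycolysis and the pentose phosphate pathway, 4 were lower and 7 higher (median 0.26), 4 higher without mutant replicate 1, 13 higher with library totals, and 7 lower and 14 higher with the replicate block over 6 libraries. The 4 lower genes were Bpgm, which makes the regulator of hemoglobin's oxygen affinity, at 35.2% of wildtype, the pyruvate kinase gene Pklr at 49.9%, Pfkm at 43.8% and Pfkfb4 at 40.7%. Aldoc, an aldolase isoform known from brain, was higher, with 33.5, 36.1 and 29.4 CPM with mutant and 8.96, 15.2 and 15.02 CPM with wildtype GATA1. Among 31 chromatin genes of the polycomb and DNA or histone methylation group, 2 were lower and 5 higher (median 0.08), or 6.45% and 16.1%, against 12.7% and 13.2% of all tested genes. The lower count was 1 without any 1 of the mutant replicates, wildtype replicate 1 or 2 or empty vector replicate 2, and 1 and 4 with the block over 9 and 6 libraries. The higher count was 9 without wildtype replicate 3 and 9 with the block over 6. Dnmt3b, a de novo DNA methyltransferase, was 2.30-fold and the polycomb subunit gene Phc1 2.64-fold higher with mutant GATA1, and the demethylase gene Kdm7a stood at 22.5% of wildtype. The other lower member was Cbx7, at -0.84 log2 units, and the other higher ones were Dnmt1, Ehmt1 and Ehmt2, at 0.61, 0.60 and 0.82. Of 13 tested antigen presentation and interferon genes among 31 listed, 6 were higher and 1 lower (median 0.15), with 2 lower with the block over 6 libraries. The lower one, Usp18, which trims the interferon-induced modifier ISG15, was not called without mutant replicate 1, mutant replicate 3 or wildtype replicate 1. Tap1, a peptide transporter, was 2.22-fold higher.

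**Figure D4:**
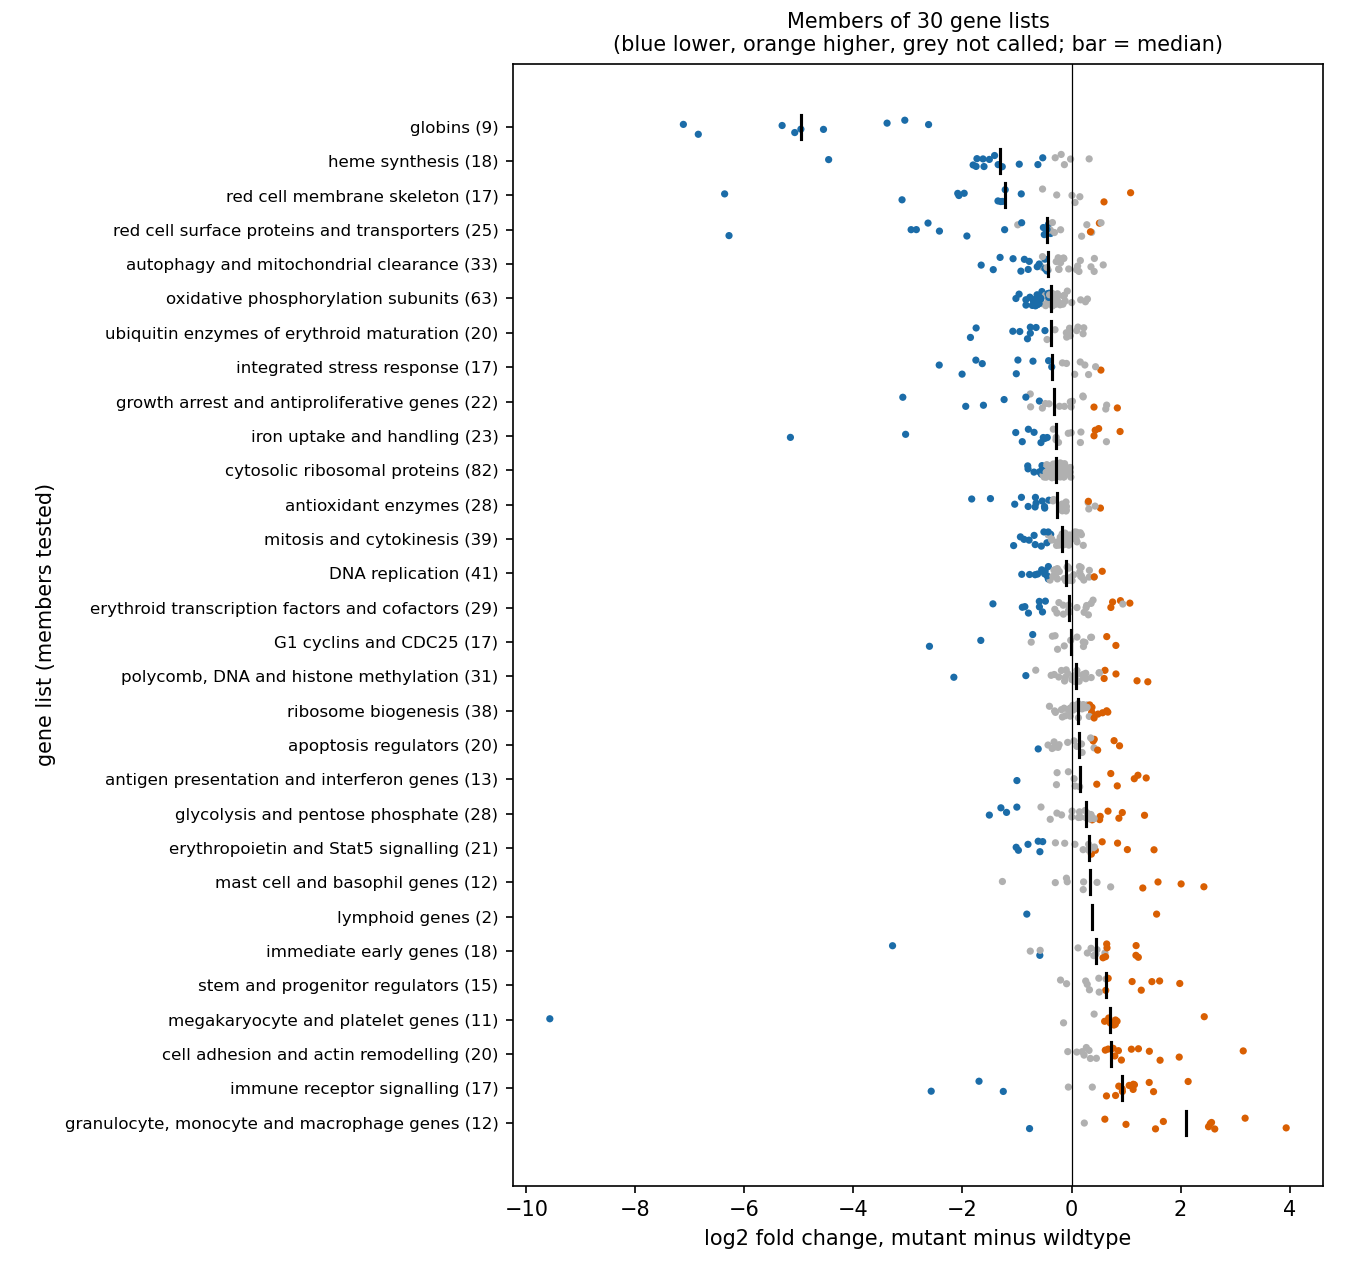
Log2 fold change, mutant minus wildtype, of every tested member of 30 gene lists, 1 point for each gene, with the number tested in brackets and a bar at the median, ordered by median. Globins, heme synthesis and the membrane skeleton lie at the low end, with medians of -4.96, -1.31 and -1.22, and granulocyte, immune signalling and adhesion genes at the high end, with medians of 2.10, 0.93 and 0.72.

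Transcript length moved with the comparison, which bears on lists of short genes. Calls of lower genes fell from 19.8% in the shortest of 5 equal bins of transcript length to 6.27% in the longest, and calls of higher genes rose from 5.28% to 21.6%. The median log2 fold change went from -0.23 to 0.21. Shortest minus longest, the shift of each library was 0.33, 0.64 and -0.16 log2 units in wildtype replicates 1, 2 and 3. It was -0.09, -0.03 and -0.37 in the mutant replicates and 0.07, -0.25 and -0.12 in the empty vector replicates. The wildtype libraries thus did not share its sign, whereas the mutant libraries did. Oxidative phosphorylation subunits, with a median transcript of 1232 bases against 3305 for all tested genes, were lower for 24 of 63 and higher for none (median -0.38). The lower count was 13 without wildtype replicate 2, 14 without mutant replicate 1 or 3, 15 without mutant replicate 2, 50 without wildtype replicate 3 and 53 with the block over 6 libraries, which also gave 1 higher. With offsets for length and GC content, an alternative added after the data were seen, it was 18, with 1 higher. Cytosolic ribosomal proteins, with a median of 1100 bases, were lower for 8 of 82 (median -0.28), a share of 9.76% against 12.7% of all tested genes. That count was 1 without wildtype replicate 2, 2 without any 1 of the mutant replicates, 4 without wildtype replicate 1, 5 without empty vector replicate 2, 39 without wildtype replicate 3, 46 with the block over 6 libraries, 17 with DESeq2, 18 with no low-count filter, 4 with library totals, and 5 with the offsets, which also gave 2 higher. Ribosome biogenesis genes were higher for 9 of 38 (median 0.12), but for 1 without wildtype replicate 1, 2 without mutant replicate 1 or wildtype replicate 2, 3 without mutant replicate 3, 4 without mutant replicate 2 or empty vector replicate 2, 4 and 15 with the block over 9 and 6 libraries, and 16 with the offsets. In that list 3 were lower without wildtype replicate 3 and 3 with the block over 6 libraries. Tcof1, which supports ribosomal RNA transcription, was 1.56-fold higher.

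**Figure D5:**
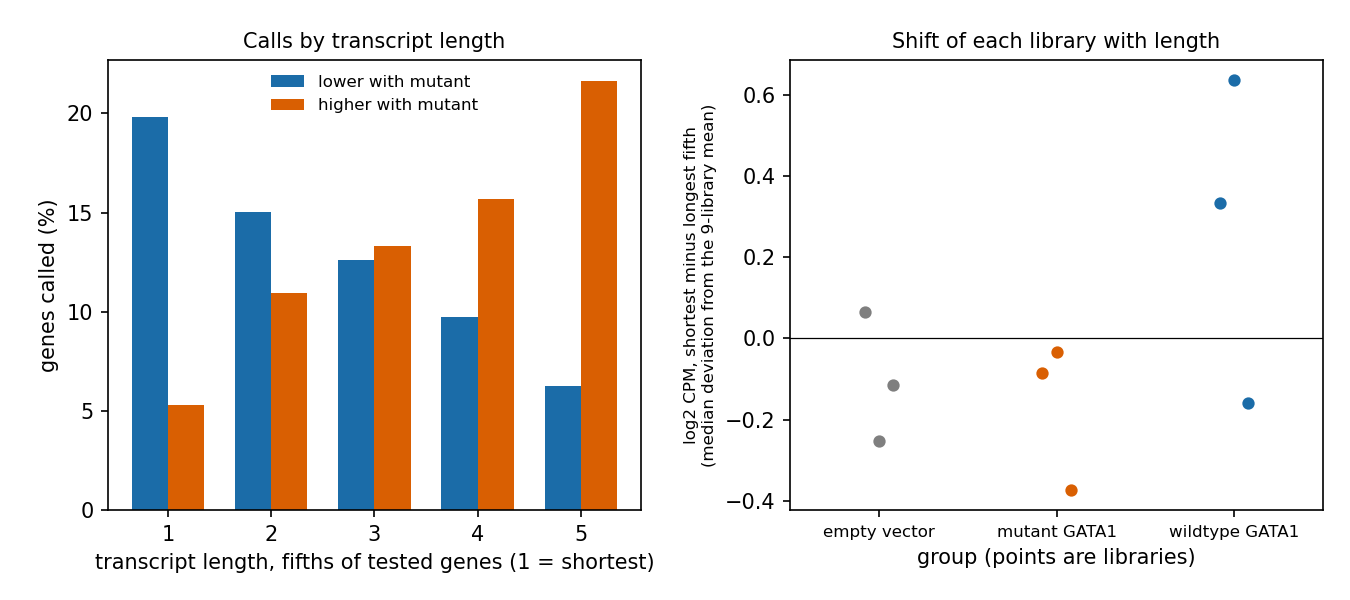
Left, the percent of tested genes called lower (blue) or higher (orange) with mutant GATA1 in 5 bins of transcript length, from 19.8% and 5.28% in the shortest to 6.27% and 21.6% in the longest. Right, the length shift of each library, with 1 point for each of the 3 libraries of a group, where wildtype replicate 2 is highest at 0.64 and mutant replicate 3 lowest at -0.37 log2 units.

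The groups are set side by side on the log2 CPM scale (prior count of 2), where the differences of low genes are understated. The median globin gene was 7.61 log2 units above the empty vector with wildtype and 1.53 with mutant GATA1. The same pair of medians was 1.54 and 0.17 for heme synthesis, 1.21 and 0.29 for the membrane skeleton and 0.80 and 0.21 for surface proteins. It was -0.68 and -0.14 for progenitor regulators, -1.19 and -0.50 for mast cell genes, -1.18 and -0.35 for megakaryocyte genes, -0.84 and -0.08 for immune signalling and -0.61 and -0.08 for adhesion genes. The 12 tested granulocyte genes had medians of opposite sign, -1.40 with wildtype and 0.28 with mutant GATA1. The summed list, however, ran lower with mutant GATA1 (114 to 119 CPM) than with the empty vector (123 to 135 CPM). Every such pair shares its 3 empty vector libraries.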

How the data were processed

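The authors deposited whole-number counts per gene for 9 Smart-seq2 libraries of full-length cDNA, which does not mark strand, so overlapping genes on opposite strands cannot be told apart. Reads were aligned with STAR, with GRCm38.p4 and hg19 as builds, per the submitters' processing notes; neither the counting tool nor the annotation is given in the sources used here. The human GATA1 row was left out of gene tests. From the counts, edgeR 4.0.16 (R 4.3.3) fitted all 9 libraries with TMM scaling, filterByExpr and a quasi-likelihood test of mutant minus wildtype, which leaves 6 residual degrees of freedom. SE is the size of the log2 fold change divided by the root of F. CPM values of genes are TMM-scaled, those of human GATA1 and summed lists per library total. Counting intervals cover counting error only.

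Named genes are 14 markers and display genes, the 15 largest changes per direction with a mean of at least 5 CPM and no overlap, and the 5 members of smallest p in each of 30 lists. Genomic neighbours, and list members outside that rule where few of a list were called, were named after their values were seen. Gene members, lists and tests were chosen with earlier results of these data known. Of 911 listed symbols 740 were tested. Lengths came from GENCODE M21, which matched 9649 tested genes (96.7%). Same-numbered mutant and wildtype libraries deviated together from their group means (r = 0.17, 0.29 and 0.53), each above the minimum of 0.1 set for pairing. The numbers were treated as pairs only in the replicate block alternatives. The main test, and so every call, SE and p-value not marked otherwise, held no term for them. The labels state no pairing and the data support it weakly: mutant 1 with wildtype 2 (0.24) and mutant 2 with wildtype 1 (0.22) exceeded pair 1, and the 4 other pairs ran from -0.41 to -0.29. DESeq2 1.42.0, other scalings and filters and leaving out single libraries were tried as alternatives. Some members are not reported here.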

Additional observations from a re-analysis of the deposited data

How the results depend on the processing

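Under 20 alternatives, 0 of the 2580 called genes were called in the opposite direction, and 56.1% to 99.8% kept their call. Leaving out 1 library gave 778 to 1577 lower and 693 to 1581 higher genes, the fewest without mutant replicate 1 and the most without wildtype replicate 3. With mutant replicates 1 and 2 summed as 1 sample there were 772 lower and 779 higher genes. The replicate block gave 1001 lower and 1054 higher genes over 9 libraries and 2417 and 2323 over 6; the cause of that gap was not tested. Apart from the counts named in the report, the block over 9 libraries removed the call of 1 named gene, Mybbp1a. DESeq2 gave 1512 lower and 1346 higher genes, and libraries thinned to the smallest total 1236 and 1286. Among named genes, for example, the calls of Pf4, Gp5, Casp8, Bid and Lck were lost without single mutant or wildtype libraries. Genes under the floor of 3 counts in a library, 0.174 to 0.264 CPM, cannot be told from absent there.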
